A study of Mus musculus with 6 samples.

Results

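Mitochondria make a small set of respiratory chain subunits on their own ribosomes, whose RNA is encoded in mitochondrial DNA and whose proteins are encoded in the nucleus, made in the cytosol and imported. The large subunit (Mrpl genes) forms peptide bonds and the small subunit (Mrps genes) decodes the message. Some of these proteins descend from bacterial ribosomal proteins and others are found only in mitochondrial ribosomes. All genes whose current symbol begins with Mrpl or Mrps followed by a number were taken, 78 genes in all, of which 49 are named for the large subunit and 29 for the small subunit. They were represented by 114 of 41174 non-control probes, and each had a probe well above background on all 6 arrays. The reference table lists 78 coding genes of this form, and all had a probe.

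The arrays measured RNA from primary astrocyte cultures of the cortex and striatum of wild-type C57BL/6J mice taken on postnatal day 1. Washout cultures received 1 µM of Ro3303544, a small-molecule inhibitor of the kinase GSK-3, for 48 h and then growth medium without it for another 48 h. Ro cultures received 1 µM Ro3303544 for 48 h, and control cultures stayed in growth medium (10% serum), to which the protocol adds an equal amount of the solvent DMSO. Each group had 2 arrays. All cultures had been exposed to 5 µM cytosine arabinoside, which kills dividing cells, for 2 days before treatment began at day 13. Washout cultures were harvested at day 17, against day 15 for Ro and control cultures, and no control of the later age was analysed here. The labels do not say that the replicates were separate cultures, so that p-values measure the spread between these samples, which may be technical.

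An array detected 60.4% to 65.2% of its probes above background, and replicates correlated across features at r = 0.992 to 0.996. The washout arrays lay on a second slide, so that washout, slide and age cannot be told apart. The number of arrays limits the precision. Axin2, a feedback target of the Wnt/beta-catenin pathway that GSK-3 inhibition turns on, was 4.29 ± 0.13 higher in Ro than in control cultures on the log2 scale (SE from limma, adjusted p = 0.0001). All 10 astrocyte markers were well above background on all arrays, 3 of them rose and 6 fell in Ro, and their summed signal in units of the array's 75th percentile was 181 to 192 in washout, 131 to 139 in Ro and 183 to 193 in control cultures. Markers of other cells were also present, and part of them moved with Ro. Beside the counts of rises and falls in this paragraph, 19.4% of all features rose and 22.7% fell in Ro minus control (limma, adjusted p under 0.05). Of the pericyte and smooth muscle markers, 6 of 6 fell in Ro (summed signal 522 to 544 in washout, 242 to 246 in Ro and 668 to 730 in control). Of the ependymal markers, 4 of 4 measured fell (38.2 to 41.1 in washout, 11.6 to 13.5 in Ro and 33.8 to 34.5 in control), and Tmem212 gave no value. Of the oligodendrocyte precursor markers, 4 of 4 measured fell (15.0 to 15.8 in washout, 6.04 to 6.05 in Ro and 24.2 to 24.5 in control), and Sox10 gave no value. Of the microglial markers 5 of 10 fell (12.5 to 13.7 in washout, 8.19 to 10.6 in Ro and 12.4 to 12.8 in control). Of the meningeal fibroblast markers 4 of 6 fell and 1 rose (10.7 to 11.1 in washout, 15.6 to 16.3 in Ro and 18.8 to 23.9 in control). Of the neuronal markers 3 of 5 measured fell and 1 rose (9.35 to 9.45 in washout, 7.50 to 8.03 in Ro and 9.73 to 10.1 in control). Of the oligodendrocyte markers 1 rose and 1 fell of 4 measured (1.04 to 1.12 in washout, 0.997 to 1.05 in Ro and 1.099 to 1.176 in control), and of the endothelial markers 1 rose and 1 fell of 2 measured (1.01 to 1.11 in washout, 2.97 to 3.23 in Ro and 0.953 to 1.03 in control). The endothelial markers Pecam1, Cdh5 and Cldn5, the neuronal markers Snap25 and Slc17a7 and the oligodendrocyte marker Mog gave no value. In such bulk cultures fewer cells of a type and less RNA per cell cannot be told apart, and the part of these markers in the results on mitochondrial ribosomal protein genes was not tested.

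The comparison of Ro with control cultures asked what sustained GSK-3 inhibition did to these genes. Most of them differed little, and a handful moved clearly. With limma and a Benjamini-Hochberg adjusted p under 0.05 over 20092 features, 10 members rose and 3 fell, 13 of 78 (16.7%), against 42.1% of all features tested. By direction, 12.8% of the members rose, against 19.4% of all features, and 3.85% fell, against 22.7% of all features. In this main fit no member changed by 2-fold or more, a size reached by 12.2% of all features. Mrps6 came nearest, with a log2 change of -0.99 that ranged from -1.10 to -0.91 over the other settings run. On the log2 scale 57 members (73.1%) lay within 0.25 of 0. The members called were thus fewer per gene tested than the background, and the rises outnumbered the falls.

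The shift of the members as a whole was small. Their median log2 change was 0.11 (quartiles 0.0098 and 0.23), against 0.0039 for all features (quartiles -0.34 and 0.29). Both Ro arrays lay above both control arrays for 49 members (62.8%, against 38.5% of all features) and below them for 11 (14.1%, against 38.8%), and the groups overlapped for 18. The median was smaller on the first Ro array, at 0.06 above the control mean, than on the second, at 0.16. The number of calls depended on single arrays. With any 1 Ro or control array left out fewer members were called, and fewer of all features too. Most member calls were lost without Ro replicate 2. The large- and small-subunit medians were then 0.058 and 0.054, and without Ro replicate 1 they were 0.16 and 0.18. Scaling also moved the split of the calls, to 18 rises and 1 fall when arrays were centred on their medians, 17 and 1 with the authors' deposited values, 17 and 3 after quantile normalization and 14 and 1 after another background correction. Of all features, these settings called 40.8%, 39.9%, 43.8% and 37.2% in this order.

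**Figure D1:**
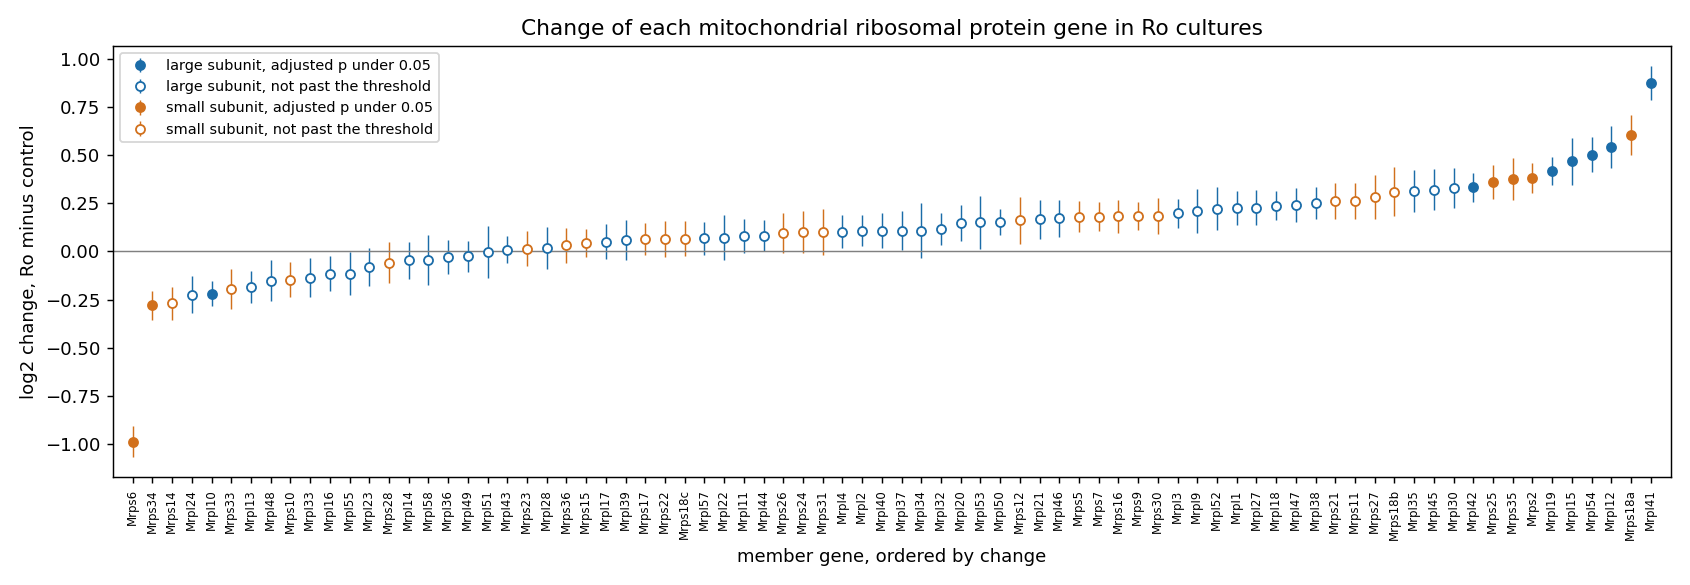
Log2 change in Ro minus control cultures for each of the 78 mitochondrial ribosomal protein genes, ordered by change, with 2 arrays per group. Mrps6 is the lowest at -0.99, Mrpl41 is the highest at 0.88, and 57 genes lie within 0.25 of 0.

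The largest change of all members was a fall, in Mrps6, the relative of bacterial S6 in the small subunit. Its log2 level relative to the array's 75th percentile was 6.99 and 6.88 in washout, 6.09 and 6.17 in Ro, and 7.09 and 7.15 in control cultures. Both Ro arrays lay well below the other 4 arrays. The change in Ro minus control was -0.99 ± 0.08 (SE, adjusted p = 0.0009). A second probe for the gene gave -0.84 (adjusted p = 0.0015 over probes). Mrps6 passed the threshold under all 12 alternatives that were run and with each of the 6 arrays left out.

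The largest rise was in Mrpl41, a large-subunit protein without a bacterial relative. Its log2 level was 3.86 and 3.67 in washout, 4.61 and 4.64 in Ro, and 3.73 and 3.76 in control cultures. The Ro arrays stood above all others, and the washout and control arrays overlapped. The log2 change in Ro minus control was 0.88 ± 0.09 (1.84-fold, adjusted p = 0.0018), and it too passed under all 12 alternatives and with each of the 6 arrays left out. Another Mrpl41 probe was not well above background on any array and gave no value.

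Mrps18a, 1 of 3 mammalian relatives of bacterial S18, was next. Despite its name its protein sits in the large subunit. Its log2 level was 2.45 and 2.26 in washout, 2.82 and 2.94 in Ro, and 2.22 and 2.33 in control cultures, with the Ro arrays above the rest. The log2 change was 0.61 ± 0.10 (adjusted p = 0.0087), and the call was lost only when Ro replicate 2 was left out, of 12 alternatives and 6 left-out arrays. The other relatives were not called: Mrps18b had a log2 change of 0.31 ± 0.13 (adjusted p = 0.11) and Mrps18c one of 0.07 ± 0.09 (adjusted p = 0.59).

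Mrpl12 and Mrpl10 belong to the stalk of the large subunit, where translation factors bind, and they were called in opposite directions. Mrpl12 had log2 levels of 3.42 and 3.20 in washout, 3.76 and 3.93 in Ro, and 3.32 and 3.28 in control cultures, and rose by 0.54 ± 0.11 in Ro (adjusted p = 0.015). Mrpl10 had 1.83 on both washout arrays, 1.80 and 1.79 in Ro, and 2.03 and 2.00 in control cultures. It fell by 0.22 ± 0.06 in Ro (adjusted p = 0.046). That call was weak: it was lost with arrays centred on their medians, after quantile normalization, with the authors' deposited values and with each of the 6 arrays left out, and the probe lay in a region of raised background on at least 1 array. Mrpl12 lost its call without control replicate 1, control replicate 2 or Ro replicate 2.

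Among other large-subunit proteins that rose in Ro, Mrpl54 (log2 change 0.50 ± 0.09, adjusted p = 0.011) and Mrpl42 (0.33 ± 0.07, adjusted p = 0.021) have no bacterial relative. Mrpl15 and Mrpl19 are relatives of bacterial L15 and L19. Mrpl15 had log2 levels of -0.46 and -0.14 in washout, 0.18 on both Ro arrays, and -0.33 and -0.25 in control cultures, with a log2 change of 0.47 ± 0.12 (adjusted p = 0.032). Mrpl19 rose by 0.42 ± 0.07 (adjusted p = 0.01). In each of these 4 genes both Ro arrays lay above the other 4 arrays. All 4 calls were lost without Ro replicate 2, and each was also lost without at least 1 control array.

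In the small subunit Mrps2, the relative of bacterial S2, and the mitochondria-specific Mrps35 and Mrps25 rose in Ro. Mrps2 had log2 levels of 1.11 and 1.06 in washout, 1.45 and 1.51 in Ro, and 1.04 and 1.15 in control cultures, a log2 change of 0.38 ± 0.08 (adjusted p = 0.016), while its second probe gave 0.16 (adjusted p = 0.23 over probes). Mrps35 rose by 0.38 ± 0.11 (adjusted p = 0.042) and Mrps25 by 0.36 ± 0.09 (adjusted p = 0.027). Mrps34, another mitochondria-specific small-subunit protein, had log2 levels of 4.48 and 4.39 in washout, 4.25 and 4.32 in Ro, and 4.56 and 4.58 in control cultures. It fell by 0.28 ± 0.07 in Ro (adjusted p = 0.034), a call lost with arrays centred on their medians, after the other background correction and with the authors' deposited values. The calls of Mrps2, Mrps35, Mrps25 and Mrps34 were each lost without control replicate 1, without Ro replicate 1 and without Ro replicate 2.

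**Figure D2:**
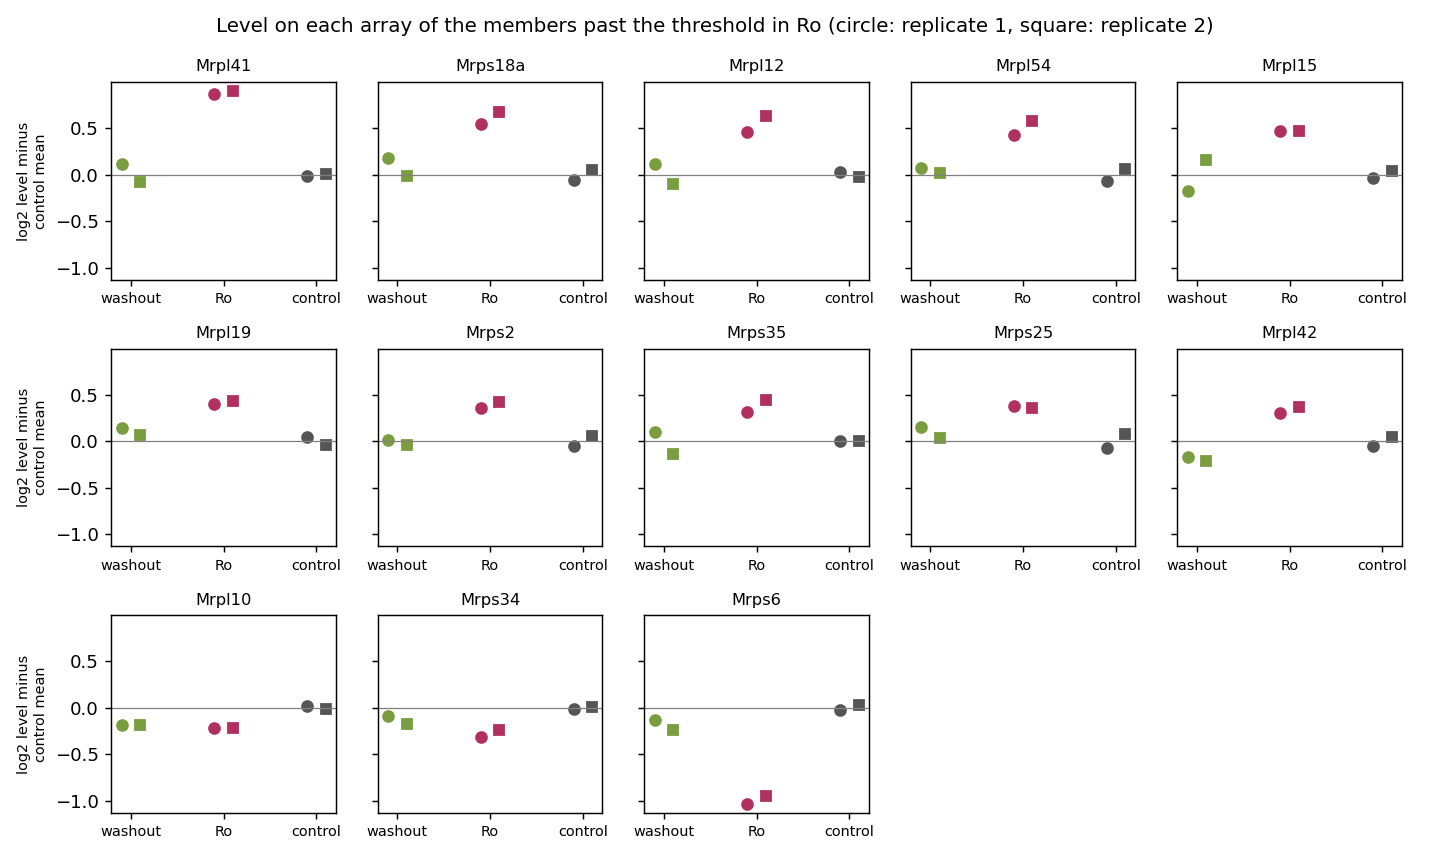
Log2 level minus the control mean on each of the 6 arrays for the 13 members past the threshold in Ro minus control, with washout, Ro and control from left to right, a circle for replicate 1 and a square for replicate 2. The Ro points of Mrps6 lie about 1 log2 unit below control, and those of Mrpl41 0.88 above control on average.

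Several well-studied members did not pass the threshold. Mrpl3, which lies near the site of peptide bond formation, had a log2 change of 0.20 ± 0.07 (adjusted p = 0.085), and Mrps12, which helps keep decoding accurate, 0.16 ± 0.12 (adjusted p = 0.34). Mrpl58, a peptidyl-tRNA hydrolase that is also a ribosomal protein, had -0.05 ± 0.13 (adjusted p = 0.8). Mrps30, which sits in the large subunit despite its name, had 0.19 ± 0.09 (adjusted p = 0.17). Mrps36, now known as a component of the 2-oxoglutarate dehydrogenase complex, had 0.03 ± 0.09 (adjusted p = 0.81).

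Where a gene had several probes, they mostly gave close values. Of 27 genes with more than 1 probe kept, 3 had probes of both signs in Ro minus control, none had probes past the threshold in both directions, and the median spread between probes was 0.084 on the log2 scale. The widest spread was in Mrpl17, a relative of bacterial L17, with log2 changes of 0.05 for the probe used and 0.79 for the other (adjusted p = 0.0017 over probes). In all, 6 genes outside the count of calls had another probe past the threshold over probes. Besides Mrpl17 these were Mrpl1 (0.48), Mrps9 (0.36), Mrps7 (0.34), Mrpl18 (0.31 and 0.29) and Mrpl38 (0.26), all higher in Ro, with adjusted p between 0.0083 and 0.045. They are named after their values were seen. Genes with such a probe were not counted over all features, so that the 6 have no background share beside them.

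In Ro minus control the medians of the large and the small subunit lay close together, and which was higher depended on the array and the processing. Of the members 7 of 49 large-subunit genes were called, 6 higher and 1 lower, with a median log2 change of 0.11, and 6 of 29 small-subunit genes, 4 higher and 2 lower, with a median of 0.10. Rises made up 12.2% of the large and 13.8% of the small subunit, against 19.4% of all features. Falls made up 2.04% and 6.90%, against 22.7%. The large minus the small median was 0.0060, 0.0046 on the first Ro array and -0.020 on the second. Relative to the control mean, this difference was -0.023 and -0.030 on the washout arrays and -0.0018 and 0.0018 on the control arrays. Between the replicates of each group either median changed more than their difference did, since both moved together across arrays. Without probes in bright regions the medians were 0.11 for the large and 0.17 for the small subunit, and with a gene's probes averaged 0.11 and 0.15. Both medians were higher on the second Ro array (large 0.16, small 0.18) than on the first (0.06 and 0.05). With Mrps30 and Mrps18a counted in the large subunit, where their proteins sit, and Mrps36 left out, 7 of 51 large-subunit genes rose and 1 fell (median 0.11), and 3 of 26 small-subunit genes rose and 2 fell (median 0.10).

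Proteins with a bacterial relative and those found only in mitochondria were then set side by side, by position in the ribosome. Mrps18a and Mrps18b were counted among the relatives of bacterial proteins, a choice made after their values were seen. In the large subunit 4 of 30 bacterial-type genes rose and 1 fell (median log2 change 0.11), and 3 of 21 mitochondria-specific genes rose and none fell (median 0.11). In the small subunit 1 of 17 bacterial-type genes rose and 1 fell (median 0.16), and 2 of 9 mitochondria-specific genes rose and 1 fell (median 0.09). In this order the 4 classes had 16.7%, 14.3%, 11.8% and 33.3% of their genes called, against 42.1% of all features. In the grouping set first, Mrps18a and Mrps18b were among the mitochondria-specific proteins. There 3 of 29 bacterial-type genes of the large subunit rose and 1 fell (median 0.11), and 4 of 22 mitochondria-specific genes rose (median 0.13). In the small subunit 1 of 16 bacterial-type genes rose and 1 fell (median 0.13), and 2 of 10 mitochondria-specific genes rose and 1 fell (median 0.099). No test of the difference between these classes was made.

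**Figure D3:**
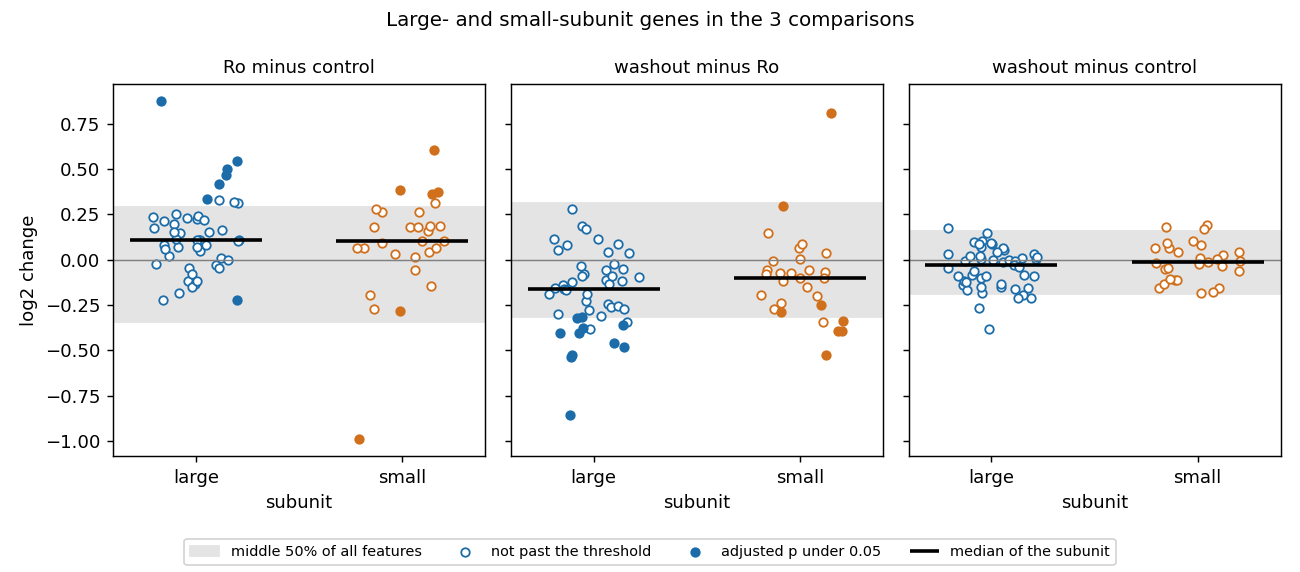
Log2 change of each large- and small-subunit gene in the 3 comparisons, with 2 arrays per group. In Ro minus control the medians are 0.11 and 0.10, in washout minus Ro -0.16 and -0.10, and in washout minus control both lie near 0.

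The sequences at the starts of the members with the largest rises and falls in Ro carry the following letters, taken from RefSeq windows on GRCm38.p6, from 250 bases before to 50 bases after the gene's start, written 5′ to 3′ along the gene. Mrpl41 lies at chr2:24975049-24975348 on the minus strand, Mrps18a at chr17:46110754-46111053, Mrpl12 at chr11:120484387-120484686, Mrps6 at chr16:92058086-92058385 and Mrpl10 at chr11:97041332-97041631, the last 4 on the plus strand. The first 3 rose and the last 2 fell in Ro. Mrps34, the third fall, is named only. Capitals mark matches, on either strand, to CCGGAAG (bound by ETS factors such as GABP), to the NRF1 motif and to AAGATGGCG (bound by YY1). None of these motifs contains another.
Mrpl41: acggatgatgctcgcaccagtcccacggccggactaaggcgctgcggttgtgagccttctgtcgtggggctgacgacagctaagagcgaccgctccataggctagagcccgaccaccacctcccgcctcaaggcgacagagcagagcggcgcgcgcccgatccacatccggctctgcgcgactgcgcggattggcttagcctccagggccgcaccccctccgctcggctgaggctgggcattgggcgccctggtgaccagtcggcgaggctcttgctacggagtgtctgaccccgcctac
Mrps18a: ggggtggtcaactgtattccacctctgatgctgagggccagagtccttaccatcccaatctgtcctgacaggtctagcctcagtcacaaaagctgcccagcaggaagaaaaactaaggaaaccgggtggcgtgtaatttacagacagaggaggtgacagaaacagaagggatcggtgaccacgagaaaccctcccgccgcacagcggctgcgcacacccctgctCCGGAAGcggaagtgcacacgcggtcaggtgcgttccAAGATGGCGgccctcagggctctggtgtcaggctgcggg
Mrpl12: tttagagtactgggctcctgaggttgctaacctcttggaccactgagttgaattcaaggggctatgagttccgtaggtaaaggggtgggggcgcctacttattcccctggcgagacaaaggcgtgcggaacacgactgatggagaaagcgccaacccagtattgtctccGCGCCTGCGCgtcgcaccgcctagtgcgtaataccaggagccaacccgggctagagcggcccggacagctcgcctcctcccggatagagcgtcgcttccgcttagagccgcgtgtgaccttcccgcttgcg
Mrps6: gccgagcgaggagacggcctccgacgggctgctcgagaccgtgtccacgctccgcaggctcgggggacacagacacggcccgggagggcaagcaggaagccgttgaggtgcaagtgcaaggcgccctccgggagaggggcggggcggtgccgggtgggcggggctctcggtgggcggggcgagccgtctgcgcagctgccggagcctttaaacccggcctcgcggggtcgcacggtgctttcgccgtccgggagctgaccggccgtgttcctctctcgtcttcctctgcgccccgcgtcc
Mrpl10: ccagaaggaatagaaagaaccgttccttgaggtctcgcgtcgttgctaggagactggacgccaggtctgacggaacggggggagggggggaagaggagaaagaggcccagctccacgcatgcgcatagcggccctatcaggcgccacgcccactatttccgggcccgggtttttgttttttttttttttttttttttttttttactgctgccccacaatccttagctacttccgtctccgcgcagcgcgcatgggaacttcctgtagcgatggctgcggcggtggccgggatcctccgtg

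In these windows Mrps18a held 1 match to CCGGAAG and 1 to AAGATGGCG, Mrpl12 held 1 match to the NRF1 motif, and Mrpl41, Mrps6 and Mrpl10 held none of the 3. Windows were found for 69 of the 78 genes, 75 windows in all. CCGGAAG was in 34.7% of them, against 8.86% of all 32851 windows in the table, the NRF1 motif in 17.3%, against 4.60%, and AAGATGGCG in 10.7%, against 1.40%. GGGCGG, the SP family motif, was in 52.0%, against 35.7% of all windows, and the E-box CACGTG, which MYC binds, in 9.33%, against 7.15%. CTTTGAT, bound by the TCF/LEF partners of beta-catenin, was in 0 of the 75 windows, against 3.73% of all windows. Both strands were searched for every motif. A match or its absence is a description of these letters alone.

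Some of these genes start near another gene. For 22 members the window overlapped that of another measured gene, on the opposite strand in 21 of 22 cases, and the partner was called in Ro minus control in 9 of 22 (40.9%), close to the 42.1% of all features. Mrpl46 and Mrps11, members of different subunits, start 42 bases apart on opposite strands, and had log2 changes of 0.17 ± 0.10 (adjusted p = 0.21) and 0.26 ± 0.09 (adjusted p = 0.076) in Ro. Mrpl49, whose log2 change was -0.03 ± 0.08 (adjusted p = 0.82), starts 192 bases from Fau, on the opposite strand. Fau encodes a protein of the cytosolic ribosome and rose by 0.53 ± 0.14 (adjusted p = 0.032). Mrpl37 had a log2 change of 0.11 ± 0.10 (adjusted p = 0.43) beside Cyb5rl, which fell by 0.69 ± 0.10 (adjusted p = 0.006).

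The only pair on the same strand was Mrps6 and Slc5a3, a transporter that carries myo-inositol into the cell with sodium, whose starts lie 14 bases apart. Slc5a3 had log2 levels of 1.83 and 1.96 in washout, 1.32 and 1.17 in Ro, and 2.01 and 2.15 in control cultures. Like Mrps6 it was lowest on both Ro arrays. Its log2 change was -0.83 ± 0.10 in Ro minus control (adjusted p = 0.0031) and 0.65 ± 0.10 in washout minus Ro (adjusted p = 0.0066). These pairs were chosen after their values were seen. Where the Mrps6 probes lie relative to the Slc5a3 transcript was not analysed here, so that the signals of the overlapping genes cannot be told apart with certainty.

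The comparison of washout with Ro cultures asked what followed removal of the inhibitor. It shares the Ro arrays with the comparison above, so that a high or low Ro array enters both with opposite sign. Of the 78 members 2 were higher and 17 lower in washout, 19 in all (24.4%), against 41.5% of all features, 21.4% higher and 20.1% lower. The median log2 change was -0.14 for the members and -0.020 for all features. Both washout arrays lay below both Ro arrays for 43 members (55.1%, against 38.2% of all features) and above them for 7 (8.97%, against 36.2%). Without Ro replicate 1, Ro replicate 2 or washout replicate 2 fewer members were called, and fewer of all features too. Most member calls were lost without Ro replicate 2. The large- and small-subunit medians were then -0.12 and -0.058, and without Ro replicate 1 they were -0.20 and -0.14.

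Mrpl41 was again the largest among the falls, with a log2 change of -0.86 ± 0.09 (adjusted p = 0.0018), beside 0.88 in Ro minus control. Mrpl12 fell by 0.54 ± 0.11 (adjusted p = 0.015), Mrps18a by 0.53 ± 0.10 (adjusted p = 0.013) and Mrpl42 by 0.52 ± 0.07 (adjusted p = 0.0048). For Mrpl42 the log2 levels were 3.07 and 3.04 in washout, 3.55 and 3.61 in Ro, and 3.20 and 3.29 in control cultures, so that the washout arrays lay below both other groups. Mrpl15, Mrpl54, Mrps35 and Mrps2 had log2 changes of -0.48, -0.46, -0.39 and -0.39. The calls of Mrpl15 and Mrps35 were kept under 10 and 9 of 12 alternatives and lost with most arrays left out. Mrpl38 (-0.41 ± 0.08, adjusted p = 0.016) and Mrpl47 (-0.40 ± 0.09, adjusted p = 0.02) fell in washout, and in Ro minus control had 0.25 (adjusted p = 0.066) and 0.24 (adjusted p = 0.085). The other 7 falls lay between -0.38 and -0.25.

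Mrps6 was higher in washout than in Ro by 0.81 ± 0.08 (adjusted p = 0.0015), and its second probe gave 0.77. The other rise was Mrps14, the relative of bacterial S14, with log2 levels of 2.66 and 2.53 in washout, 2.25 and 2.35 in Ro, and 2.61 and 2.53 in control cultures. Its log2 change was 0.30 ± 0.09 (adjusted p = 0.044), and 0.19 to 0.36 over the other settings run. That call was weak: it was kept under 6 of 12 alternatives and lost with most arrays left out. Arrays centred on their medians and the authors' deposited values were among the settings that lost it. In Ro minus control Mrps14 had -0.27 (adjusted p = 0.056). Mrpl41, Mrps6 and Mrpl42 passed the threshold in washout minus Ro under all 12 alternatives and with each of the 6 arrays left out. Mrps34 (0.15 ± 0.07, adjusted p = 0.17) and Mrpl10 (0.04 ± 0.06, adjusted p = 0.67), both lower in Ro than in control, did not pass here.

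Of 49 large-subunit genes none rose and 11 fell in washout minus Ro (median log2 change -0.16), and of 29 small-subunit genes 2 rose and 6 fell (median -0.10). Falls made up 22.4% of the large and 20.7% of the small subunit, close to the 20.1% of all features. Rises made up 0% and 6.90%, against 21.4%. By position in the ribosome the counts were 12 falls of 51 and 2 rises and 5 falls of 26. The medians rested in part on 1 array. Without washout replicate 2 they were -0.10 for the large and 0.010 for the small subunit, so that the direction of the small-subunit median turned. When arrays were centred on their medians they were -0.25 for the large subunit, -0.19 for the small subunit and -0.11 for all features. With the authors' deposited values these were -0.26, -0.21 and -0.12.

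Washout and control cultures were then compared to ask whether any member stayed changed 48 h after the inhibitor was removed. The 2 genes set as a check of treatment, Axin2 and Sp5, were both still higher in washout than in control cultures. Their log2 changes were 1.46 to 2.02 (limma, adjusted p under 0.05). No member passed limma's threshold, against 10.1% of all features, 4.13% higher and 5.97% lower. No member reached a 2-fold change, against 3.5% of all features. At an unadjusted p under 0.05 there were 5, against 28.7% of all features. With an intensity trend and a robust prior limma called 0 members too. Averaging the probes of a gene gave 1 call, Mrpl17 (0.35, adjusted p = 0.043), and leaving out washout replicate 2 gave 1, Mrpl51 (-0.57, adjusted p = 0.042). The medians were -0.03 for the large subunit, -0.0098 for the small subunit and -0.011 for all features.

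The intervals were narrow for most members. For 76 of 78 the 95% interval of the log2 change lay within 0.5 of 0, the exceptions being Mrpl51 and Mrpl23. Mrpl51, a mitochondria-specific protein whose probe lay in a region of raised background, had log2 levels of 3.72 and 4.10 in washout, 4.27 and 4.31 in Ro, and 4.31 and 4.27 in control cultures, and a log2 change of -0.38 ± 0.14 in washout minus control (adjusted p = 0.15). For Mrpl41 the log2 change was 0.02 with an interval of -0.21 to 0.25, and for Mrps6 it was -0.18 with an interval of -0.39 to 0.021. A p that misses the threshold does not show that the groups were alike, and these intervals give the sizes still possible.

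The 2 washout arrays differed from each other across the members. Washout replicate 1 was above washout replicate 2 for 72 of 78 members (92.3%, against 58.6% of all features), with a median difference of 0.17 on the log2 scale. Ro replicate 1 was above Ro replicate 2 for 7 of 78 (8.97%, against 44.2%), with a median difference of -0.079. The control arrays differed less, with replicate 1 above replicate 2 for 31 of 78. Relative to the control mean, the large- and small-subunit medians were 0.06 and 0.08 on washout replicate 1 and -0.12 and -0.09 on washout replicate 2, so that washout replicate 1 lay at the level of the first Ro array (0.06 and 0.05). The medians of the member genes therefore did not separate the washout and Ro groups beyond the spread of their replicates.

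**Figure D4:**
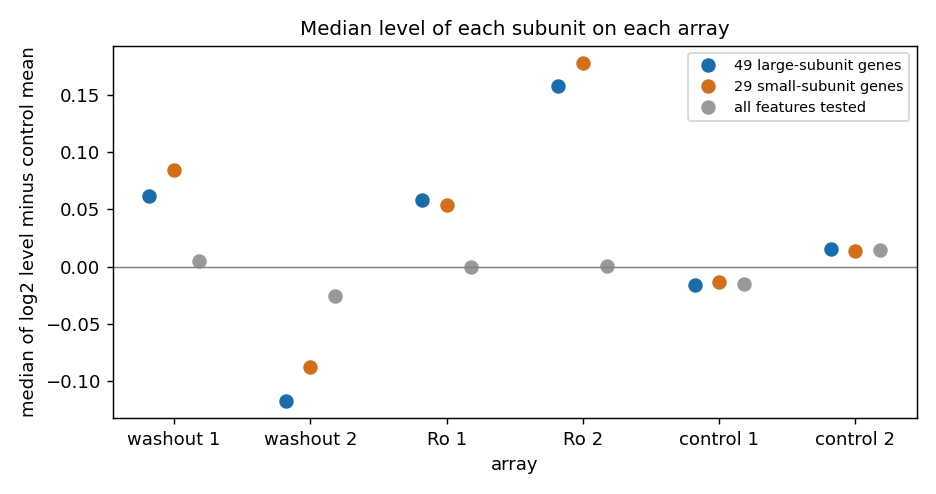
Median log2 level minus the control mean of the large- and small-subunit genes and of all features on each array, with washout, Ro and control from left to right. The subunits move together on every array, washout replicate 1 (0.06 and 0.08) lies beside Ro replicate 1 (0.06 and 0.05), and all features stay within 0.03 of 0.

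Some mitochondrial ribosome proteins carry other symbols. Of 5 measured, Ptcd3 rose in Ro (log2 change 0.29 ± 0.08, adjusted p = 0.037), and Chchd1 (0.24, adjusted p = 0.074), Dap3 (0.12, adjusted p = 0.29), Gadd45gip1 (0.02, adjusted p = 0.89) and Aurkaip1 (-0.11, adjusted p = 0.39) did not pass. In washout minus Ro, Chchd1 fell by 0.36 ± 0.09 (adjusted p = 0.026). None passed in washout minus control.

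Of the factors that assemble the mitochondrial ribosome, 21 of 24 were measured. In this list 7 rose and 1 fell in Ro minus control (38.1% called, against 42.1% of all features, median log2 change 0.22), and 1 rose and 6 fell in washout minus Ro (33.3%, against 41.5%, median -0.12). Neither of these shares, which take both directions together, was above the background. By direction, rises in Ro made up 33.3%, against 19.4% of all features, and falls 4.76%, against 22.7%. In washout minus Ro falls made up 28.6%, against 20.1%, and rises 4.76%, against 21.4%. Fastkd2, which binds mitochondrial ribosomal RNA, had log2 levels of -0.06 and -0.14 in washout, 0.29 and 0.22 in Ro, and -0.30 and -0.36 in control cultures, and rose by 0.58 ± 0.07 in Ro (adjusted p = 0.0036). The RNA helicase Ddx28 rose by 0.48 (adjusted p = 0.0078) and the GTPase Noa1 by 0.40 (adjusted p = 0.01), while Mettl15, which methylates the small-subunit RNA, fell by 0.48 (adjusted p = 0.0044).

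Of 12 measured translation factors and messenger RNA partners, 3 rose and none fell in Ro minus control (25%, against 42.1% of all features, median 0.086), and 3 fell in washout minus Ro (25%, against 41.5%, median -0.24). Lrpprc, which stabilises mitochondrial messenger RNAs, had log2 levels of 2.62 and 2.46 in washout, 3.25 and 3.29 in Ro, and 2.43 and 2.49 in control cultures. It rose by 0.81 ± 0.08 in Ro (adjusted p = 0.0019), and fell by 0.73 ± 0.08 in washout relative to Ro (adjusted p = 0.0027). The elongation factors Guf1 and Tufm had log2 changes of 0.38 and 0.34 in Ro minus control and -0.52 and -0.34 in washout minus Ro. Of 21 mitochondrial aminoacyl-tRNA enzymes 4 rose and 1 fell in Ro (23.8%, against 42.1%, median 0.10), led by the tyrosine enzyme Yars2 (0.47, adjusted p = 0.0059). Of 8 proteins that transcribe and copy mitochondrial DNA, the polymerases Polg (0.33) and Polrmt (0.31) rose in Ro and none fell (25%, against 42.1%). By direction, rises in Ro made up 25%, 19.0% and 25% of these 3 lists, against 19.4% of all features. Falls made up 0%, 4.76% and 0%, against 22.7%. In washout minus Ro 25% of the translation factors and messenger RNA partners fell, against 20.1% of all features.

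Among 9 measured regulators of nuclear genes for mitochondria, 3 were called in Ro minus control (33.3%, against 42.1% of all features). Gabpb1, a subunit of the ETS factor GABP, rose by 0.43 ± 0.07 (adjusted p = 0.0077) and the nuclear receptor Esrra by 0.39 ± 0.07 (adjusted p = 0.012). Myc, a growth regulator whose protein GSK-3 marks for destruction, had log2 levels of 1.63 and 1.84 in washout, 0.06 and 0.12 in Ro, and 1.20 and 1.28 in control cultures, and fell by 1.15 ± 0.10 in Ro (adjusted p = 0.001). Nrf1 (0.23, adjusted p = 0.07), Gabpa (-0.24, adjusted p = 0.06), Yy1 (-0.07, adjusted p = 0.46), Pprc1 (0.25, adjusted p = 0.077), Ppargc1a (0.09, adjusted p = 0.82) and Ppargc1b (0.01, adjusted p = 0.95) did not pass. In washout minus control 3 of 9 were called, against 10.1% of all features. Myc (0.49, adjusted p = 0.041) and Gabpb1 (0.34, adjusted p = 0.048) were higher and the coactivator Ppargc1b was lower (-0.97, adjusted p = 0.018).

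The proteins of the cytosolic ribosome were set beside those of the mitochondrial one. Of 77 cytosolic ribosomal protein genes 70 rose and none fell in Ro minus control (median log2 change 0.58), beside 10 rises and 3 falls of 78 mitochondrial members (median 0.11). In washout minus Ro 71 of 77 fell (median -0.57), beside 17 falls and 2 rises of 78 (median -0.14), and in washout minus control 0 of 77 and 0 of 78 passed. Of all features 19.4% rose and 22.7% fell in Ro minus control, and 21.4% rose and 20.1% fell in washout minus Ro. In washout minus control 10.1% of all features passed. The difference between the lists was not tested.

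**Figure D5:**
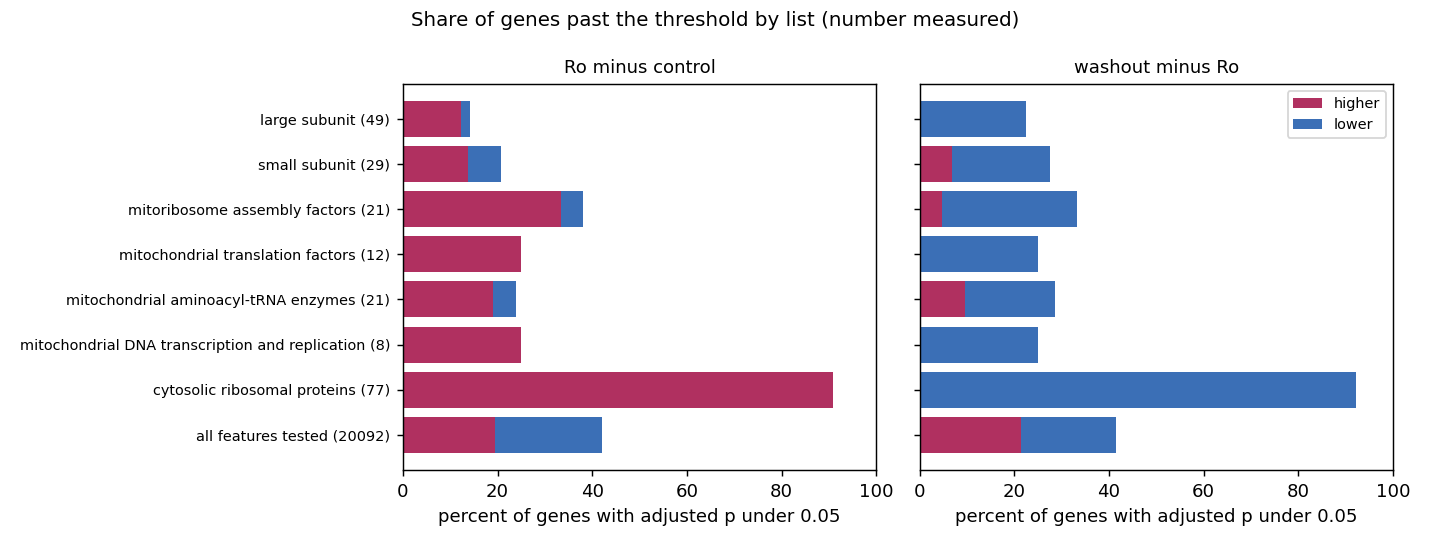
Percent of measured genes with adjusted p under 0.05 in each list, higher and lower, in Ro minus control and washout minus Ro, with the number measured beside each name. In Ro minus control 16.7% of the mitochondrial ribosomal protein genes and 90.9% of the cytosolic ones passed, against 42.1% of all features tested.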

How the data were processed

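Intensity values on a linear scale were deposited by the authors as 1 scanner file per array, made from Cy3-labelled RNA with Agilent Feature Extraction (version 10.1 per the submitters' processing notes, 10.5.1.1 per the file headers), with background subtracted and no scaling between arrays. A deposited table also holds a linear ratio for each probe and sample, centred by a rule not given in the sources used here. Its probe-centred log2 values correlated with those of the scanner files at r = 0.993 to 0.997, and it served as an alternative.

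The 75th percentile of each array was subtracted from its log2 processed intensity. Faulty spots removed 106 of 41174 non-control probes, and 26475 were kept because Feature Extraction called both arrays of some group well above background. Accessions were matched to symbols in the RefSeq table (25097 probes named, 61.0%), and the brightest probe stood for a gene, which gave 20092 features. The 3 group means were fitted to all 6 arrays at once (limma 3.58.1, R 4.3.3, 3 residual and 2.09 prior degrees of freedom), and differences were tested two-sided with Benjamini-Hochberg adjustment over all features and a threshold of 0.05. Errors are limma's standard errors.

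The named members are up to 10 largest rises and falls per comparison past the threshold without overlap of arrays, members with dim or disagreeing probes, and 10 fixed members. Other lists give up to 4 genes each, and the regulators and other ribosome proteins all of theirs. The members and lists were chosen with earlier results of these data known. Alternatives changed the scaling, background correction, filter, variance prior, choice of probe, arrays in the fit and pairing, and left out each array. A planned background correction was run on median signals, since the files hold no mean signal. Equal replicate numbers did not pair the samples, since the deviations of same-numbered arrays correlated at -0.119 between Ro and control, -0.111 between washout and Ro and 0.0784 between washout and control. The procedure was tested on simulated data. Plots used matplotlib 3.10.9 and Python 3.11.15.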

Additional observations from a re-analysis of the deposited data

How the results depend on the processing

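In all 20 settings of each comparison the share of members called stayed below that of all features. Calls in Ro minus control numbered 13, against 20 after quantile normalization (17 higher, 3 lower), 6 without a filter on dim probes (5 higher, 1 lower), 26 with an intensity trend and robust prior (22 higher, 4 lower) and 2 to 16 with an array left out. Calls in washout minus Ro numbered 19, beside 41.5% of all features. There were 4 without the filter (beside 17.8%), 31 with the trend (46.2%) and 10 with the replicate number as a block (34.5%). Leaving out a Ro array lowered both the member calls and the share of all features. In washout minus control there were 0, beside 10.1% of all features, and 1 when a gene's probes were averaged, beside 9.55%. The replicate block gave 9 calls in Ro minus control, beside 34.3% of all features, and 0 in washout minus control, beside 3.83%. With the numbers of the Ro arrays exchanged, an alternative chosen after seeing the data, the block gave 13, 17 and 0 calls in Ro minus control, washout minus Ro and washout minus control. Of all features it called 41.9%, 41.3% and 8.26% in this order. In washout minus Ro the large-subunit median of -0.16 became -0.25 with median centring and -0.26 with the authors' deposited values, and -0.22 to -0.10 with an array left out. The small-subunit median of -0.10 became -0.19 and -0.21, and -0.17 to 0.010. In washout minus control leaving out an array gave -0.12 to 0.061 for the large and -0.088 to 0.085 for the small subunit. The median of the large minus the small subunit in Ro minus control, 0.0060, became 0.012 after quantile normalization, -0.013 after normexp background correction on median signals, -0.037 with probes averaged, -0.059 without probes in bright regions and -0.020 to 0.016 with an array left out. In washout minus Ro it was -0.059, against -0.025 after normexp, -0.087 with probes averaged, -0.077 with subunits by structure and -0.106 to -0.049 with an array left out. In washout minus control it was -0.017, against -0.0058 after normexp and -0.043 to -0.0019 with an array left out. Mrpl17 in washout minus control turned to 0.35 with probes averaged, which takes in its dimmer probe at 0.71. The cause of the other changes was not tested. Signal over background limits no member, since each was well above it on all 6 arrays.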
